A study of Mus musculus with 2 samples.

Results

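The T cell receptor complex and its proximal signalling genes are described here in regulatory T (Treg) cells, the CD4 T cells that restrain immune responses. The 42 members were chosen by name: receptor signalling chains, surface receptors, kinases, adaptors, exchange factors, lipid enzymes, phosphatases and NFAT factors. They were found as 64 of the 55676 probes of a 1-colour Agilent mouse array, and as 42 of its 34960 gene names. The Nr4a-TKO sample was total RNA of sorted Treg cells from 5-week-old mice of that genotype, and the wild-type sample was the same material from 5-week-old wild-type mice. Each genotype had 1 array. The labels do not say how the Nr4a genes were altered, in which cells, how many mice gave RNA, of which sex, or by which markers the cells were sorted. A difference is therefore between 2 arrays, and no test, SE or p-value was made.

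When a T cell receptor binds its ligand, the kinase Lck, carried by the coreceptor CD4, phosphorylates tyrosines in the tails of the CD3 and zeta chains. The kinase ZAP-70 docks there and phosphorylates the adaptors LAT and SLP-76, on which phospholipase C gamma, Vav and Ras exchange factors gather. Calcium then activates NFAT, diacylglycerol activates Ras and protein kinase C theta, and this kinase reaches NF-kB through Bcl10 and Malt1. Phosphatases, Csk, diacylglycerol kinases and the SLAP adaptors restrain these steps. Treg cells depend on this receptor for their development and for their suppressive function.

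Levels are log2 signals relative to the 75th percentile of all probes on the array, so they compare 1 probe between arrays and not genes with each other. In the array labelled Nr4a-TKO, relative to wild-type, Nr4a3 was 7.04-fold lower, Nr4a1 differed by 0.06 on the log2 scale and Nr4a2 was 2.54-fold higher. Where an alteration lies outside a probe, the probe does not check it, so the genotype stands as a label throughout. All 7 Xist probes, looked at after their values were seen, were brighter there by at least 69.8-fold. Of genes on the Y chromosome, Ddx3y was 3.63-fold lower, Eif2s3y 1.97-fold and Uty 1.52-fold, all of them well above background on both arrays, while Kdm5d was lower by at least 1.87-fold. These values do not settle the sex of the mice, and sex and genotype cannot be told apart. None of the members lies on the X or Y chromosome. Foxp3, which defines Treg cells, was lower by 17.2-fold. Of 8 Treg markers, 4 were at least 2-fold lower (beside 3.06% of all gene names) and 0 higher (beside 3.15%). The summed scaled signal of those 8 markers was 334 in the array labelled Nr4a-TKO and 463 in wild-type. Most of it came from Tnfrsf18 (log2 7.16 in the array labelled Nr4a-TKO and 7.72 in wild-type) and Il2ra (6.76 and 7.15). Foxp3, at -2.57 and 1.54, added little to it. The summed signal was 4.60 and 6.95 for CD8 T and NK markers, 2.22 and 1.73 for B cell markers and 154 and 153 for macrophage and dendritic markers. Most of the macrophage and dendritic sum came from Siglech, at log2 7.09 in the array labelled Nr4a-TKO and 7.12 in wild-type. The summed signal was 1.37 and 2.45 for granulocyte and mast cell markers, 0.22 and 0.18 for erythroid and platelet markers, and 2.34 and 3.79 for immature thymocyte markers. Such sums are led by the brightest probes and do not measure shares of cells. Outside the Treg list, the markers measured on both arrays and past 2-fold were as follows. Batf3, a dendritic cell factor, was 12.6-fold higher (2.14 in the array labelled Nr4a-TKO and -1.51 in wild-type). The B cell gene Cd79b was 2.51-fold higher, and the granulocyte and mast cell genes Mpo, Ctsg and Kit were 7.76-fold, 5.88-fold and 5.40-fold lower. Well above background in wild-type only were Klrd1, of the CD8 T and NK list, S100a9, S100a8, Lyz2 and Hba-a1. They were lower by at least 6.25-fold, 3.02-fold, 2.61-fold, 1.63-fold and 1.15-fold. Prtn3 was well above background in the array labelled Nr4a-TKO only, and higher by at least 1.37-fold. The myeloid markers Itgam and Cd68 were well above background on both arrays, whereas Ms4a1, Rag1, Rag2, Itgax and Cd14 were so on neither. Their part in the differences below was not tested. In bulk RNA, fewer cells of a type and less RNA per cell cannot be told apart.

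Most members had a lower signal on the array labelled Nr4a-TKO than on the wild-type array. Of the 42 genes, 41 were well above background on both arrays, the exception being Pag1, the membrane adaptor that recruits Csk, at log2 -4.84 in the array labelled Nr4a-TKO and -4.85 in wild-type. By any size, 30 of the 41 were lower and 11 higher, while 40.4% of all 23494 gene names measured on both arrays were lower. The median difference of the members was -0.36 on the log2 scale, beside 0.08 over all gene names. Among gene names brighter than the 75th percentile, 28 of 39 members were lower, beside 33.9% of all 11138, with medians of -0.33 and 0.12. Of those 39, 3 were at least 2-fold lower, beside 2.24%, and 2 at least 2-fold higher, beside 2.18%. At least 2-fold lower were 4 members (Trat1, Vav3, Ptprc and Txk), beside 3.06% of all gene names. At least 2-fold higher were 2 members (Themis and Malt1), beside 3.15%. With a limit of 1.5-fold 10 were lower, beside 7.36%, and 2 higher, beside 8.36%, and with 3-fold 1 was lower, beside 1.2%, and 1 higher, beside 1.23%. When spike-ins or housekeeping genes set the centre, 6 members were at least 2-fold lower and 1 higher. All gene names were then 4.88% lower and 2.04% higher with spike-ins, and 3.98% and 2.46% with housekeeping genes. Quantile normalization and loess each gave 5 and 1, beside 3.27% and 2.91% with quantile normalization and 3.14% and 3.05% with loess. The members were chosen with results of these data known, so these counts are a description.

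**Figure D1:**
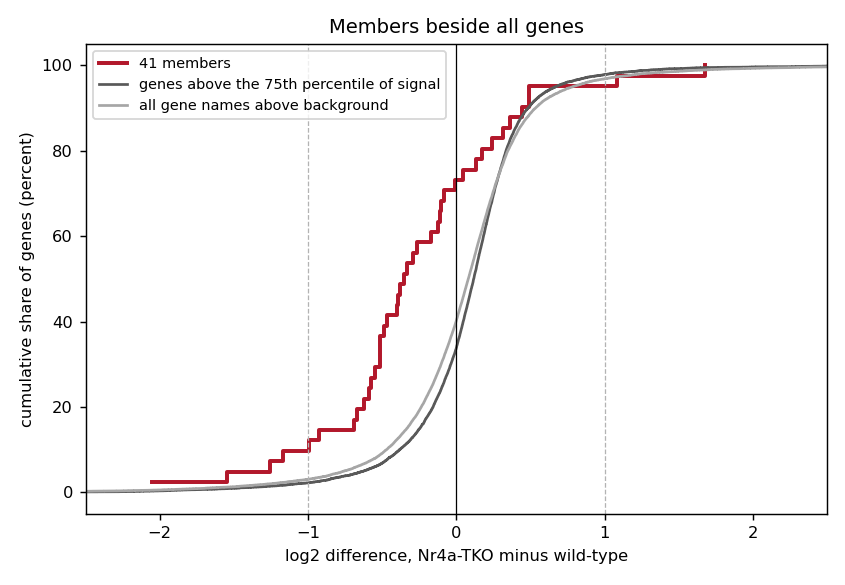
Cumulative share of genes, in percent, against the log2 difference (array labelled Nr4a-TKO less wild-type array), for the 41 members, for the 11138 gene names with a mean signal above the 75th percentile and for all 23494 gene names above background. The members' line lies to the left of the others through most of its course (median -0.36, beside 0.12 and 0.08), and dashed lines mark 2-fold.

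On mm9 the probe of Vav3 lies at chr3:109487985-109488044 on the + strand, that of Ptprc at chr1:139961083-139961142 on the - strand and that of Txk at chr5:73087262-73087321 on the - strand. The brighter Themis probe lies at chr10:28602460-28602519 on the + strand. No gene model of that build was used, so exons and UTRs are not assigned.

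The spread between spots, known only for probes spotted several times, was small beside the leading differences. Gaps between probes of a gene could be as large as some of them. The probes that stand for Trat1, Vav3, Ptprc, Txk, Malt1 and Themis had 1 spot on each array and so no spot SD of their own. Of these genes only Themis had a further probe. The SD between spots of a probe had a median of 0.051 in the array labelled Nr4a-TKO and 0.061 in wild-type over 262 probes, which gives 0.080 for a difference. Over 6750 genes with several measured probes, the gap between the probes' differences had a median of 0.25, and over the 19 such members it was 0.22. Variation between mice or RNA preparations is not part of these spreads.

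The 4 chains that carry the receptor's signalling tails were all lower at their brightest probe, beside 40.4% of all gene names, by amounts well under 2-fold. Cd3d had a log2 signal of 6.55 in the array labelled Nr4a-TKO and 7.07 in wild-type, a difference of -0.52. Cd3g had 5.10 and 5.50 (-0.39), and Cd3e had 5.73 and 6.09 (-0.36). Cd247, which encodes the zeta chain, had 2.08 in the array labelled Nr4a-TKO and 2.63 in wild-type at its brighter probe, a difference of -0.55. Its second probe, far dimmer, went the other way at 0.18 (-2.52 and -2.70), and the mean of both probes was -0.19. The direction of Cd247 therefore rests on its brighter probe.

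The probes of Cd3d and Cd247 are shown because each matches a part of the transcript that encodes a signalling motif of the protein. Both cross an intron and encode an immunoreceptor tyrosine-based activation motif (ITAM), the paired-tyrosine element that Lck phosphorylates and ZAP-70 binds. Capitals mark the stretch of 15 codons from the first tyrosine codon to the last leucine codon, found on the probe's own strand. On mm9 the Cd247 probe lies at chr1:167786567-167787585 and the Cd3d probe at chr9:44794171-44794402, both on the + strand. The same codon pattern, with 6 to 8 codons between its tyrosine boxes, was found in 41 of 55681 probes (0.0736%), and these were the 2 member probes among them.
Cd247 probe: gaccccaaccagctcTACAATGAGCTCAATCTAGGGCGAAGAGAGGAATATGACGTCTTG
Cd3d probe: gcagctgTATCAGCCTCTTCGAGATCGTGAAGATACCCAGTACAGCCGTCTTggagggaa

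The surface receptors split in direction. Cd4, whose protein brings Lck to the complex, had 5.16 in the array labelled Nr4a-TKO and 5.68 in wild-type (-0.52). Its second probe, spotted 10 times on each array, averaged 0.19 ± 0.047 in the array labelled Nr4a-TKO and 0.90 ± 0.061 in wild-type (SD over 10 spots of 1 array each), a difference of -0.71. These spots did not overlap in their SD ranges, yet all share 1 RNA sample per genotype.
Cd2, the adhesion receptor for CD48 in mice, was lower at both probes. The brighter had 7.28 in the array labelled Nr4a-TKO and 7.88 in wild-type (-0.59), and the other averaged 4.75 ± 0.048 and 5.63 ± 0.046 (SD over 10 spots of 1 array each; -0.88). Cd5 and Cd6, related scavenger-receptor proteins of which CD5 restrains receptor signalling, were both higher. Cd5 had 7.93 in the array labelled Nr4a-TKO and 7.57 in wild-type (0.36). Cd6 had 7.29 and 6.98 (0.31), with 0.35 at its second probe. These directions held in all 12 settings that were compared gene by gene. Several of those settings leave a value as it is or shift every gene alike, so they are not independent checks.

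**Figure D2:**
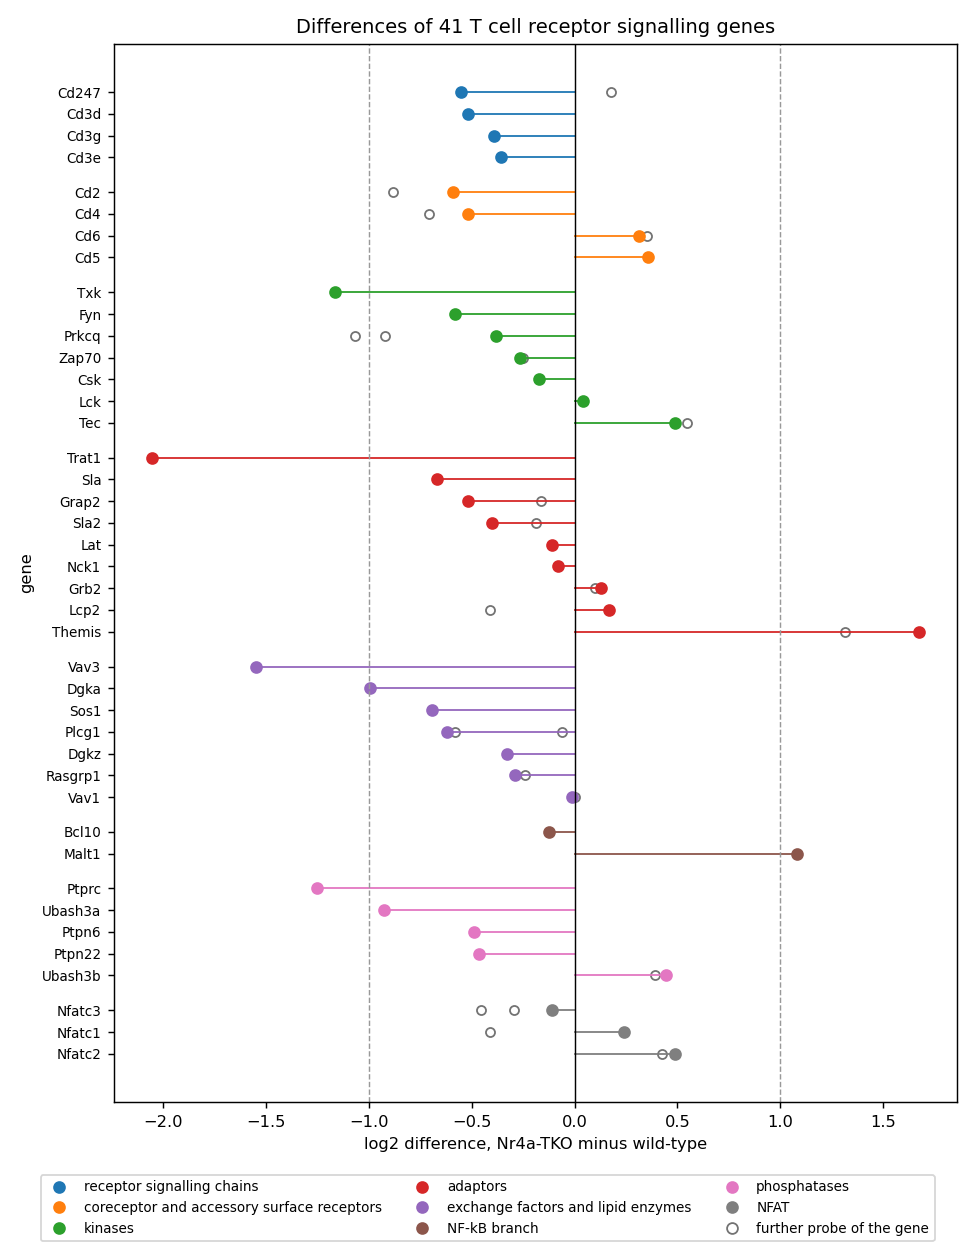
Log2 difference (array labelled Nr4a-TKO less wild-type array) for the 41 measured members, grouped by role from top to bottom, with open circles for further probes of a gene and dashed lines at 2-fold. Trat1 (-2.05) and Vav3 (-1.55) lie farthest to the left and Themis (1.68) farthest to the right. The small positive values of Lck, Grb2, Lcp2 and Nfatc1 turned sign under some scalings.

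Among the kinases, Txk was the only one of 7 past 2-fold at its brightest probe. Txk, a Tec-family kinase of T cells, had 2.16 in the array labelled Nr4a-TKO and 3.33 in wild-type, which is 2.24-fold lower. Tec, its relative, was higher at both probes, with 0.54 in the array labelled Nr4a-TKO and 0.06 in wild-type at the brighter (0.49) and 0.54 as the difference at the other. The 2 Tec-family members thus differed in opposite directions. Lck had 7.71 in the array labelled Nr4a-TKO and 7.67 in wild-type (0.04), under the technical SD of a difference, and its sign turned under some scalings. Zap70 had 6.68 and 6.94 (-0.27), with -0.25 at its second probe. Fyn, the second Src-family kinase of T cells, had 1.41 in the array labelled Nr4a-TKO and 1.99 in wild-type (-0.58). Csk, which phosphorylates the inhibitory tyrosine of Lck, had 2.12 and 2.29 (-0.17). Prkcq, which encodes protein kinase C theta, was lower at all 3 probes, by -0.38 at the brightest (3.86 in the array labelled Nr4a-TKO and 4.24 in wild-type) and by -0.92 and -1.07 at the others. Its size thus depended on the probe, with 1 dimmer probe past 2-fold.

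The adaptors held the largest differences in both directions. Trat1 encodes TRIM, a transmembrane adaptor associated with the receptor complex. It had 0.60 in the array labelled Nr4a-TKO and 2.66 in wild-type, which is 4.15-fold lower and ranked 125th from the lowest among 23494 gene names. It stayed between 3.77-fold and 4.87-fold lower over 12 settings, several of which could not change the value of a gene with 1 probe. Its single probe is printed because no other probe backs this value, and it lies at chr16:48734961-48735020 on the - strand of mm9.
Trat1 probe: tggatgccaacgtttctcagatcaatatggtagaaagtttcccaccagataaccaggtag
Themis, an adaptor needed for positive selection in the thymus, was higher at both probes. The brighter had 2.87 in the array labelled Nr4a-TKO and 1.19 in wild-type (3.19-fold), and the other had -0.43 and -1.75 (2.49-fold). It was 2-fold or more higher in all 12 settings. The adaptors that gather at LAT differed by less than 2-fold. Lat, the scaffold, had 5.19 in the array labelled Nr4a-TKO and 5.29 in wild-type (-0.11). Nck1 differed by -0.08. Grb2 differed by 0.13 and Lcp2, which encodes SLP-76, by 0.17, both with a sign that turned under some scalings. A second Lcp2 probe was at -0.41. Grap2, which encodes the GADS adaptor that links SLP-76 to LAT, had 2.91 in the array labelled Nr4a-TKO and 3.43 in wild-type at its brighter probe (-0.52), with -0.16 at the other. The SLAP adaptors, which help to remove receptor chains, were lower: Sla had 4.79 in the array labelled Nr4a-TKO and 5.46 in wild-type (-0.67), and Sla2 had 1.13 and 1.53 (-0.40).

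**Figure D3:**
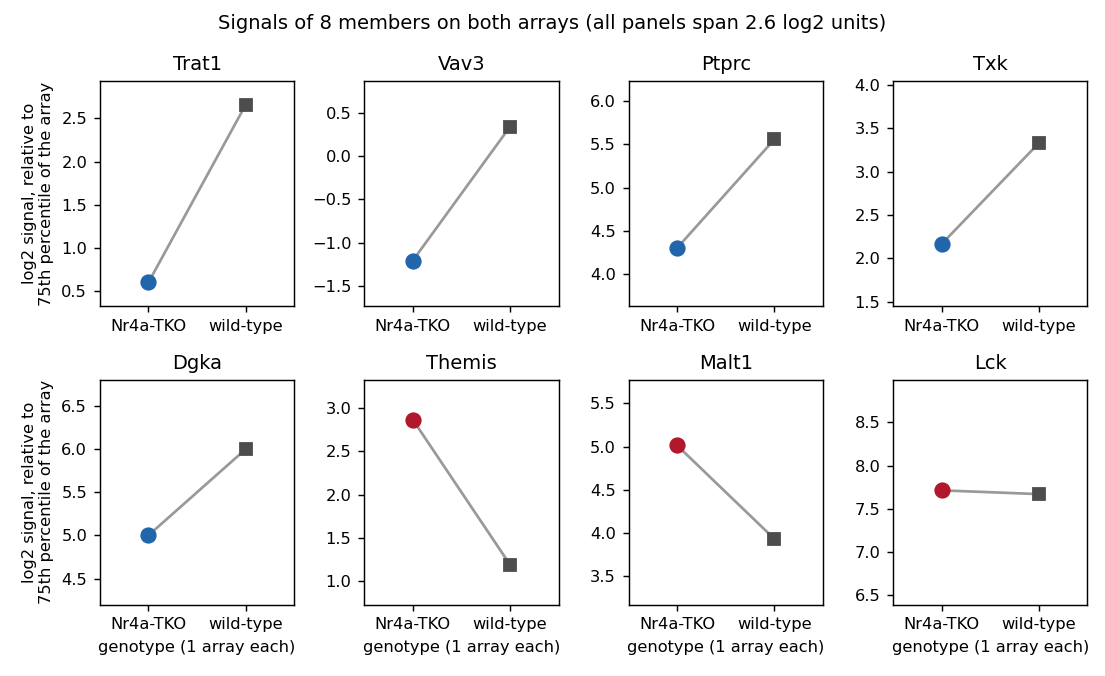
Log2 signal relative to the 75th percentile of the array, for the array labelled Nr4a-TKO on the left and wild-type on the right of each panel, with 1 array per genotype and so no error bars. Trat1, Vav3, Ptprc, Txk and Dgka are lower in the array labelled Nr4a-TKO, Themis and Malt1 are higher, and Lck (7.71 and 7.67) is nearly level, with a sign that turned under some scalings.

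All 7 exchange factors and lipid enzymes were below 0 at their brightest probe, beside 40.4% of all gene names, though Vav1 was level at -0.01 and the others ran from -0.29 to -1.55. Vav3, a Rac exchange factor, had -1.21 in the array labelled Nr4a-TKO and 0.34 in wild-type, which is 2.92-fold lower, or 2.62-fold with normexp background correction. Vav1, the main Vav protein of T cells, had 5.96 and 5.97 at its brighter probe and 3.84 on both arrays at the other, so the 2 Vav members differed by unequal amounts. Dgka, a diacylglycerol kinase that dampens Ras activation, had 5.00 in the array labelled Nr4a-TKO and 6.0 in wild-type. At 1.99-fold lower it lay just outside 2-fold, which it passed in 8 of 12 settings. Just inside were Txk at 2.24-fold among the lower members and Malt1 at 2.11-fold among the higher. Dgkz, the second diacylglycerol kinase, differed by -0.33. Plcg1, the phospholipase that makes diacylglycerol and the calcium signal, had 3.41 in the array labelled Nr4a-TKO and 4.03 in wild-type at its brightest probe (-0.62), with -0.58 at the second and -0.06 at the dimmest. The Ras exchange factor Rasgrp1 differed by -0.29. Sos1, another Ras exchange factor, had -4.41 in the array labelled Nr4a-TKO and -3.72 in wild-type (-0.69). That probe was dim, and with normexp its difference was -0.20.

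The partners of the NF-kB branch differed in direction. Malt1, the paracaspase, had 5.01 in the array labelled Nr4a-TKO and 3.93 in wild-type, which is 2.11-fold higher. It was under 2-fold in 4 of the 12 settings, with a lowest value of 1.80-fold under spike-in centring. Bcl10, which holds Malt1 in the signalling complex, differed by -0.12 (2.70 and 2.83).

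Of the 5 phosphatases, 4 were lower, beside 40.4% of all gene names, and 1 higher. Ptprc encodes CD45, which removes the inhibitory phosphate from Lck and is carried by all T cells. It had 4.30 in the array labelled Nr4a-TKO and 5.56 in wild-type, 2.38-fold lower at its single probe, and between 2.36-fold and 2.80-fold lower over 12 settings. Splice forms of CD45 cannot be told apart with 1 probe. Ubash3a and Ubash3b encode related phosphatase-family proteins that restrain the receptor, and they went in opposite directions. Ubash3a averaged 0.88 ± 0.032 in the array labelled Nr4a-TKO and 1.80 ± 0.049 in wild-type (SD over 10 spots of 1 array each), a difference of -0.92. Ubash3b had 3.04 and 2.59 (0.44), with 0.39 at its second probe. Ptpn6, which encodes SHP-1, had 5.24 in the array labelled Nr4a-TKO and 5.72 in wild-type (-0.49). Ptpn22, a phosphatase that acts on Lck and works with Csk, had 2.95 and 3.42 (-0.47).

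The NFAT factors, which calcineurin sends to the nucleus, differed by less than 2-fold and not in 1 direction. Nfatc2 was higher at both probes, with 5.11 in the array labelled Nr4a-TKO and 4.63 in wild-type at the brighter (0.49) and 0.43 as the difference at the other. Nfatc1 differed by 0.24 at 1 probe and by -0.41 at the other, so its direction was not settled. Nfatc3 was lower at all 3 probes, by -0.11, -0.30 and -0.46.

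Genes known to restrain the pathway were mostly lower, and so were the other members. Of 10 measured (Csk, Cd5, Ptpn22, Ptpn6, Ubash3a, Ubash3b, Dgka, Dgkz, Sla and Sla2), 8 were lower, beside 40.4% of all gene names, and 2 higher, with a median of -0.43. Under the main scaling 0 were past 2-fold, which Dgka passed in 8 of 12 settings and Ubash3a in 2. Of the other 31 members, 22 were lower and 9 higher, with a median of -0.29. Whether these medians differ was not tested.

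Several probes per gene allowed a check along the transcript for 19 members. The probe nearest the 5′ end gave a lower difference than the one nearest the 3′ end in 11 of the 19, with a median gap of -0.06. Over 6596 genes of the array this held for 47.3%, with a median gap of 0.02. In Prkcq the gap was -0.69, in Cd247 -0.73, in Lcp2 -0.58 and in Plcg1 -0.52, while in Nfatc1 it was 0.65. The probes disagreed in sign in Cd247, Lcp2, Nfatc1 and Vav1, the last with both values close to 0.

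**Figure D4:**
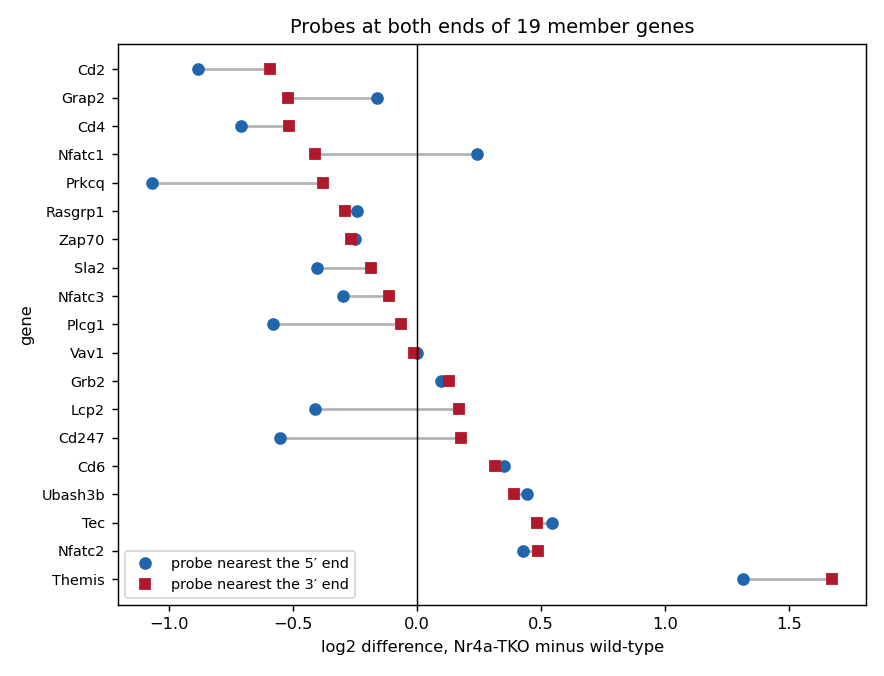
Log2 difference (array labelled Nr4a-TKO less wild-type array) at the probe nearest the 5′ end (circles) and the probe nearest the 3′ end (squares) for the 19 members with several measured probes. In Cd2, Cd4, Cd6, Zap70, Tec, Ubash3b, Nfatc2 and Themis both ends share a sign, whereas Cd247, Lcp2 and Nfatc1 cross 0.

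Further genes of the pathway had a median nearer 0 than the members. Of 102 listed, 101 matched a gene name and 96 were measured. The count past 2-fold was 7 lower (beside 3.06% of all gene names) and 2 higher (beside 3.15%). By any size 60 of the 96 were lower, beside 40.4%, and the median was -0.12. Rasgrp2, a Rap1 exchange factor, was lower by 4.69-fold, with 1.42 in the array labelled Nr4a-TKO and 3.65 in wild-type, and its 2 probes gave -2.23 and -2.22. Cblb, a ubiquitin ligase that restrains T cell activation, had 1.46 in the array labelled Nr4a-TKO and 3.36 in wild-type (3.74-fold lower), and Ppp3ca, a calcineurin catalytic subunit, had -0.14 and 1.75 (3.71-fold lower). These 3 and the costimulatory receptor gene Cd27 (3.61-fold lower) were past 2-fold in all 12 settings. The other lower genes were nearer the limit. Pik3r1, the PI3 kinase regulatory subunit, was at 2.10-fold, Rasgrp4 at 2.02-fold and the adaptor Lax1 at 2.01-fold, and with normexp these were 1.91-fold, 1.68-fold and 1.77-fold. Ptprj, a receptor phosphatase, was higher by 2.5-fold at its brightest probe, with its other measured probes reaching down to -0.07 on the log2 scale, and Plcg2 by 2.02-fold. With normexp both were under 2-fold.
Of the relatives of members, Vav2 differed by -0.87, Nck2 by -0.32, Nfat5 by -0.27 and Nfatc4 by -0.16. Sos2 differed by 0.22, with a sign that turned when spike-ins set the centre.

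**Figure D5:**
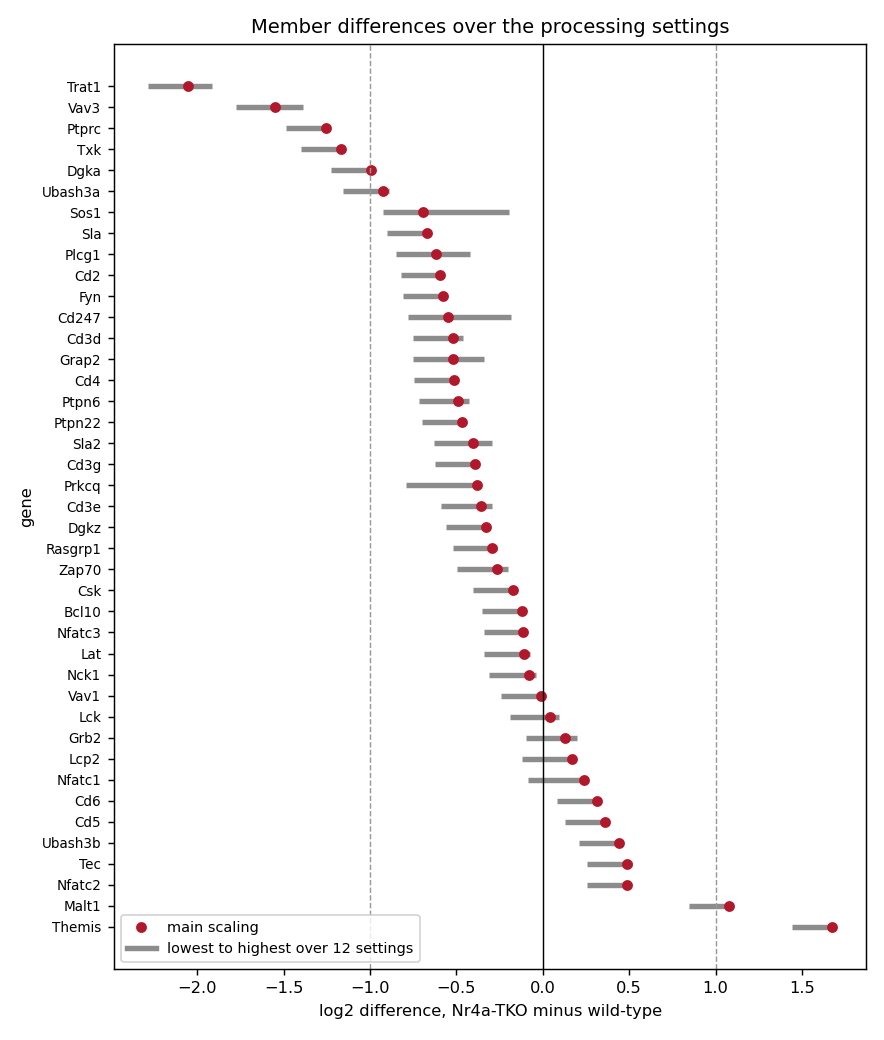
Log2 difference of each of the 41 members under the main scaling (points) and its lowest to highest value over 12 settings (bars, 11 settings for the dim Sos1). Bars of 30 members lie wholly below 0 and those of 7 wholly above it, and Lck, Grb2, Lcp2 and Nfatc1 cross 0.

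Promoter windows were searched for the letters of an Nr4a site and, for comparison, of a Runx site. RefSeq windows on GRCm38.p6 were found for 35 of the 42 members, 54 windows in all, and the 250 bases before each start were read on both strands. The Nr4a monomer site AAAGGTCA was found in 1 member window, of Zap70, and in 1.34% of all 32851 windows. The Runx core TGTGGT was found in 7 of the 54 member windows, of Lck, Ptpn22, Sla2, Sos1, Trat1, Txk and Zap70, and in 14.0% of all windows. The Zap70 window with the Nr4a letters is one of 3 for that gene, at chr1:36778734-36778983 on the + strand. The Trat1 window, shown because Trat1 differed most, lies at chr16:48772063-48772312 on the - strand. Capitals mark the match, read on the opposite strand in both, which begins 243 bases before the Zap70 start and 76 bases before the Trat1 start. A match here is a description of letters and not of binding.
Zap70 promoter window: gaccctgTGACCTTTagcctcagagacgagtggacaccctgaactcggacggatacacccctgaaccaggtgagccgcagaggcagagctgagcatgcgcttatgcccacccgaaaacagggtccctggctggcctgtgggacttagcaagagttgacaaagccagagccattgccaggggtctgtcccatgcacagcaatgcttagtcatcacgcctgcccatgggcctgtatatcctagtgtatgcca
Trat1 promoter window: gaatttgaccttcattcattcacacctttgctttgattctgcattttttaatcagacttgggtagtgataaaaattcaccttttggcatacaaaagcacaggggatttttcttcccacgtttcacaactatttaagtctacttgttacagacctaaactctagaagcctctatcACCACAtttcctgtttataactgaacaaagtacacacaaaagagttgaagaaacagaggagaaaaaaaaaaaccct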

How the data were processed

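Per the file headers, the deposited scanner files hold the intensity of each spot, made by version 10.10.1.1 of Feature Extraction, with probes placed on mm9. Their second deposited table held log2 values, which were the log2 of the processed signal shifted by 1 number on each array (SD of the shift over probes 0.00029). Its column medians were -3.53 for Nr4a-TKO and -3.54 for wild-type. Its 75th percentiles were 0.009 and 0.011, so its constant was close to the 75th percentile that the main scaling subtracts. The exact rule behind it stays unknown. Both arrays lay on 1 slide with 1 scan time, per the file headers.

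Each array held 62976 spots. The 3671 control spots and the spots with outlier flags (117 on the array labelled Nr4a-TKO and 156 on the wild-type array) were left out, and 0 spots were saturated. Log2 processed signals were averaged per probe, and the 75th percentile over the 55676 probes of that array was then subtracted. On the array labelled Nr4a-TKO 63.9% of probes were well above background in the scanner's own call, and on the wild-type array 66.0%. Members were matched by the file's gene name. Other names came through RefSeq accessions (GRCm38.p6, names and promoters only) for 27503 probes and from the file for 28178. The brightest probe, by the mean of both arrays, stood for a gene, which was counted if neither array had it near background. A 2-fold difference is a size, not a test. With 1 array per genotype no p-value, SE or test across genes was made, and the number of arrays limits the precision.

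Members and lists were chosen with earlier results of these data known. All members could be named; of the further pathway genes, those past 2-fold and some relatives of members. Some items are not reported here. Alternatives were normexp background correction (offset 50), quantile normalization, centring on the array median, on probes above background, on spike-ins and on housekeeping genes, loess (span 0.3), the mean of a gene's probes, the log2 values as deposited, 2 filters on dim probes and limits of 1.5-fold and 3-fold. Scaling over spots was added after seeing the data. Slide could not be a block. The counting step was tested on simulated data. Python 3.11.15 with numpy 2.4.6, pandas 2.3.3 and matplotlib 3.10.9 was used, and R 4.3.3 with limma 3.58.1.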

Additional observations from a re-analysis of the deposited data

How the results depend on the processing

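With 1 array per genotype there is no replicate to leave out. No paired analysis was possible because each genotype has 1 array and no test was made. Over 12 settings (11 for Sos1), 30 of 41 members were always lower and 7 always higher, while Lck, Grb2, Lcp2 and Nfatc1 turned. The settings are not independent checks. The filters on dim probes leave a member's value as it is, and so does the mean of probes for a gene with 1 probe. The log2 values as deposited are the same signals with another constant, and each centring shifts every gene alike. The 4 members lower by 2-fold became 10 at 1.5-fold and 1 at 3-fold. The 2 higher became 1 at 3-fold, and 1 with quantile normalization, spike-ins, housekeeping genes or loess. The median of -0.36 was -0.45 with quantile normalization, -0.59 with spike-ins and -0.50 with housekeeping genes, centrings that move every gene. Spike-ins shifted the median of all gene names by -0.23 and housekeeping genes by -0.14, and less its own all-gene median the members' median ran from -0.46 to -0.37 over all settings. All gene names split into 720 lower and 741 higher, or 1147 and 480 with spike-ins and 935 and 577 with housekeeping genes. For the further pathway genes, the 7 lower became 4 with normexp, 14 at 1.5-fold and 4 at 3-fold. The 2 higher became 0 with normexp or at 3-fold, 7 at 1.5-fold, and 1 with quantile normalization, the array median, probes above background, spike-ins, housekeeping genes, loess, the mean over probes or scaling over spots. The limits of fold act by construction, and the other causes were not tested. Dim probes such as that of Sos1 carry the least certain values.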

Other observations

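Among members that neighbour each other on the chromosomes, 3 groups were picked after the values were seen, with no rule of distance. Ptpn6 and Cd4 are a further pair, with probes on chromosome 6 from 124671114 to 124817765, and both were lower (-0.49 and -0.52). The Cd3g, Cd3d and Cd3e probes lie within chr9:44777868-44806887 on mm9, and all 3 genes were lower by similar amounts (-0.39, -0.52 and -0.36). The probes of Cd5 and Cd6 lie on chromosome 19, from 10792701 to 10868678, and both genes were higher by similar amounts (0.36 and 0.31). Txk and Tec lie side by side on chromosome 5, with probes from 73087262 to 73148662, and differed in opposite directions (-1.17 and 0.49).

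By branch of the wider pathway, the genes past 2-fold were counted, beside 3.06% lower and 3.15% higher over all gene names. Of 17 measured genes of the Ras and MAP kinase branch, 2 were at least 2-fold lower (Rasgrp2, and Rasgrp4, which passed in 8 of 12 settings), 0 higher, and the median was -0.07. Of 16 calcium and calcineurin genes, 1 was lower (Ppp3ca), 1 higher (Plcg2, which passed in 4 of 12 settings), and the median was -0.15. The other calcineurin subunit genes, named after their values were seen, differed by 0.02 (Ppp3cb), 0.33 (Ppp3cc) and 0.11 (Ppp3r1). Of 9 PI3 kinase and lipid genes, 1 was lower (Pik3r1, which passed in 11 of 12 settings), 0 higher, and the median was -0.11. Of 13 actin and Rac genes and 8 further NF-kB branch genes, 0 were past 2-fold, with medians of -0.05 and -0.16. All 3 ubiquitin ligase genes were lower, beside 40.4% of all gene names. Only Cblb was past 2-fold, and Cbl (-0.18) and Itch (-0.13) differed little.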
